A study of Mus musculus with 42 samples.

Results

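The lens crystallin genes described here were 10 of the 26653 genes in the deposited expression table: the alpha-crystallins Cryaa and Cryab, the acidic beta-crystallins Cryba1, Cryba2 and Cryba4, the basic beta-crystallins Crybb1, Crybb2 and Crybb3, and the gamma-crystallins Crygs and Crygd. They were chosen by gene symbol and not by their values, though with earlier results of these data known, and all 10 were found in the table. RNA-seq had been performed on polyA RNA from 42 samples of 7 tissues, of which 22 were wild type and 20 were Tug1-/-: eyes, heart, liver, spleen and mouse embryonic fibroblasts (MEFs, primary cells cultured to passage 2) with 3 wild type and 3 knockout samples each, testes with 4 and 3, and prostate with 3 and 2. Every sample came from males of the strain Tug1_tm1.1Vlcg on a C57BL/6J background, given as N3-C57BL/6J with no Neo, and no treatment or age is given in the labels. Wild type animals carried an intact Tug1 gene, a long noncoding RNA, on both alleles, whereas in the knockout a lacZ reporter replaced Tug1 on both alleles in every cell, so tissue-specific and whole-body effects cannot be told apart.

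Crystallins are the water-soluble proteins that fill the fiber cells of the eye lens and give it its transparency and refractive index. The alpha-crystallins belong to the small heat shock proteins and act as chaperones that keep other proteins from aggregating, and alphaB-crystallin (Cryab) is also made outside the lens, above all in heart and skeletal muscle, where it associates with desmin at the Z-disc. The beta- and gamma-crystallins share a fold of Greek key motifs and are mainly structural. The transcription factors Pax6, Maf and Prox1 are known activators of crystallin genes.

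For each tissue the table held 1 expression value per genotype, in fragments per kilobase of transcript per 1000000 fragments (FPKM), that the authors had combined from the replicates. The spread between animals is therefore unknown, no test was made, and every difference below is a description. A gene was counted as past the limit when its knockout and wild type values, each with 0.1 FPKM added, differed by more than 1.5-fold and at least 1 of them reached 1 FPKM. In a bulk sample, fewer cells of a type and less RNA per cell cannot be told apart.

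The targeted locus matched the genotype labels in every tissue. Tug1 in eyes was 18.4 FPKM in wild type and 0.183 FPKM in knockout, and it was lower in knockout in all 7 tissues, with log2 changes from -7.60 in spleen to -5.66 in heart. The lacZ sequence in eyes was listed at 0.00894 FPKM in wild type and 5.98 FPKM in knockout, and it was higher in knockout in all 7 tissues.

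The 10 genes lie on 6 chromosomes. By GENCODE vM21 coordinates (GRCm38, also called mm10), Cryaa lies on chromosome 17 (31677807 to 31681733, plus strand), Cryab on chromosome 9 (50751325 to 50756636, plus strand), Cryba1 on chromosome 11 (77718615 to 77725283, minus strand) and Crygs on chromosome 16 (22805203 to 22811577, minus strand). Chromosome 5 holds 4 of them as a divergent pair and a tandem pair. Cryba4 (112246493 to 112252518, minus strand) and Crybb1 (112255815 to 112269585, plus strand) point away from each other across 3296 bases. Crybb2 (113058258 to 113070117) and Crybb3 (113075839 to 113081584) follow each other on the minus strand, 5721 bases apart. Chromosome 1 holds Cryba2 (74889934 to 74893143, minus strand) and Crygd (65061872 to 65063452, minus strand), the latter within the gamma-crystallin cluster that also includes Cryga, Crygb, Crygc and Cryge.

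The bases just upstream of the transcription start are shown for 5 of these genes and for Crygb. Cryba4 and Crybb1 are the divergent pair, and Crybb2 and Cryba1 are the most abundant basic and acidic beta-crystallins. Crygd and Crygb are members of the gamma cluster, with Crygc lying between them. Each line gives the 120 bases before the RefSeq start on GRCm38.p6, 5′ to 3′ on the gene's own strand. Capitals mark the first TATA between 40 and 16 bases before the start, or TGCTGA, the core that Maf proteins can bind, on either strand.
Crybb2 (chr5:113070118-113070237, minus strand): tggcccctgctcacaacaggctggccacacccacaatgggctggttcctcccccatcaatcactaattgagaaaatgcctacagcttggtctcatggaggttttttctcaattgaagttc
Cryba1 (chr11:77725294-77725413, minus strand): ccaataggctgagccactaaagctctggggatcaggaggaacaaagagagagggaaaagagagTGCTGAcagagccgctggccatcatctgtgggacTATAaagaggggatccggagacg
Cryba4 (chr5:112252519-112252638, minus strand): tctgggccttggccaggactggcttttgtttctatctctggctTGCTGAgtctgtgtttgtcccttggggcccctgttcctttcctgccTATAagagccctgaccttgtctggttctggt
Crybb1 (chr5:112255700-112255819, plus strand): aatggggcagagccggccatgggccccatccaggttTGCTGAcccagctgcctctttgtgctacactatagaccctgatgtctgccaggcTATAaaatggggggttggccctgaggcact
Crygd (chr1:65063441-65063560, minus strand): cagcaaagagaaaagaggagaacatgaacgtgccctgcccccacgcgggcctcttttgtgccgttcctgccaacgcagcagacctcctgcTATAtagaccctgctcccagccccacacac
Crygb (chr1:65082291-65082410, minus strand): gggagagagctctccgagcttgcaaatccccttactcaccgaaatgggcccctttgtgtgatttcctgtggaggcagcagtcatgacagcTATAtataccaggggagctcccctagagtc

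RefSeq promoters were matched for 9 of the 10 genes, and that of Cryab was not used here. For Cryaa and Crygs, the 120 bases before the RefSeq start lie inside the GENCODE vM21 gene, so their annotated starts differ. TATA was found in its window in 6 of the 9 (Cryaa, Cryba1, Cryba4, Crybb1, Crygs and Crygd), against 5.91% of the 32851 promoter windows of all genes. TGCTGA was found on either strand within 250 bases of the start in 7 of the 9, all but Crybb2 and Crygd, against 16.1% of all windows. Cryba4 held 3 such matches, beginning 182, 135 and 77 bases before its start. These letter matches are a description of sequence and not of factor binding.

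In eyes, the level of every crystallin gene in knockout was within 1.5-fold of that in wild type, so that 0 of 10 passed the limit, where 3.74% of the 14453 genes with at least 1 FPKM in eyes did. As deposited, 7 of the 10 were higher and 3 were lower in knockout, but with both pools rescaled to the same total, 3 (Cryab, Cryba1 and Crygs) were higher and 7 were lower, so no direction is given for the group. As deposited, the median log2 change of the 10 was 0.01, beside -0.02 over all genes. After rescaling, that of the 10 was -0.02, but rescaling shifts the changes of all genes in eyes by about -0.03. Their median absolute log2 change was 0.055, beside 0.108 for all genes and 0.155 for the 514 genes with at least 100 FPKM, of which 8.95% were past the limit.

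The alpha-crystallins were led by Cryaa, which encodes the lens-restricted alphaA subunit. Cryaa was at 5281 FPKM in wild type and 5290 FPKM in knockout eyes, a log2 change of 0.00. Cryab was at 1164 and 1317 FPKM, 13.2% higher in knockout (log2 change 0.18). The ratio of Cryaa to Cryab was 4.54 in wild type and 4.02 in knockout.

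The acidic beta-crystallins lay between 1307 and 2847 FPKM and were within 4.81% between genotypes. Cryba1, whose message gives both the betaA3 and betaA1 chains, was at 2716 FPKM in wild type and 2847 FPKM in knockout (log2 change 0.07). Cryba2 was at 1612 and 1642 FPKM (0.03), and Cryba4 was at 1307 and 1323 FPKM (0.02). Cryba1 lies wholly inside Nufip2 on the opposite strand, and the library kit does not mark strand. Nufip2 was at 17.2 and 17.1 FPKM in eyes, far below Cryba1.

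Among the basic beta-crystallins, Crybb2 was the most abundant of all 10 genes. It was at 7757 FPKM in wild type and 7537 FPKM in knockout (log2 change -0.04), and only 1 gene of the table stood above it in wild type eyes, where its rank was 2. Crybb3 was at 685 and 646 FPKM (log2 change -0.09), and Crybb1 at 481 and 485 FPKM (0.01). In the divergent pair, the ratio of Crybb1 to Cryba4 was 0.368 in wild type and 0.366 in knockout.

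The gamma-crystallins held the least and the most different of the 10. Crygs, the gammaS chain made in the outer fiber cells of the grown lens, was at 2077 FPKM in wild type and 2258 FPKM in knockout (log2 change 0.12). Crygd was at 294 and 230 FPKM, 21.7% lower in knockout. Its log2 change of -0.35 was the largest of the 10 in absolute size. Its rank among all genes was 134 in wild type and 196 in knockout.

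The 10 genes kept 1 order in both genotypes: Crybb2, Cryaa, Cryba1, Crygs, Cryba2, Cryba4, Cryab, Crybb3, Crybb1 and Crygd, from highest to lowest FPKM. Whether neighbours in that order differ beyond the spread between animals cannot be told from pooled values. The highest was 26.4 times the lowest in wild type and 32.8 times in knockout. Of the 10, 8 were among the 50 most abundant genes of the eye in either genotype.

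Summed, the 10 genes reached 23375 FPKM in wild type and 23575 FPKM in knockout eyes (log2 change 0.01). This was 6.18% of the summed FPKM of all genes in wild type and 6.10% in knockout. The alpha-crystallins made up 27.6% of the sum of the 10 in wild type and 28.0% in knockout. The acidic beta-crystallins made up 24.1% and 24.7%, the basic beta-crystallins 38.2% and 36.8%, and Crygs and Crygd together 10.1% and 10.6%. The 6 other gamma-crystallins are outside this sum. Together they were at 1596 FPKM in wild type and 1056 FPKM in knockout eyes. The plot of eye levels shows the near overlap of the genotypes for most of the 10 genes and the gap at the chromosome 1 gamma-crystallins, Crygd among them.

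**Figure D1:**
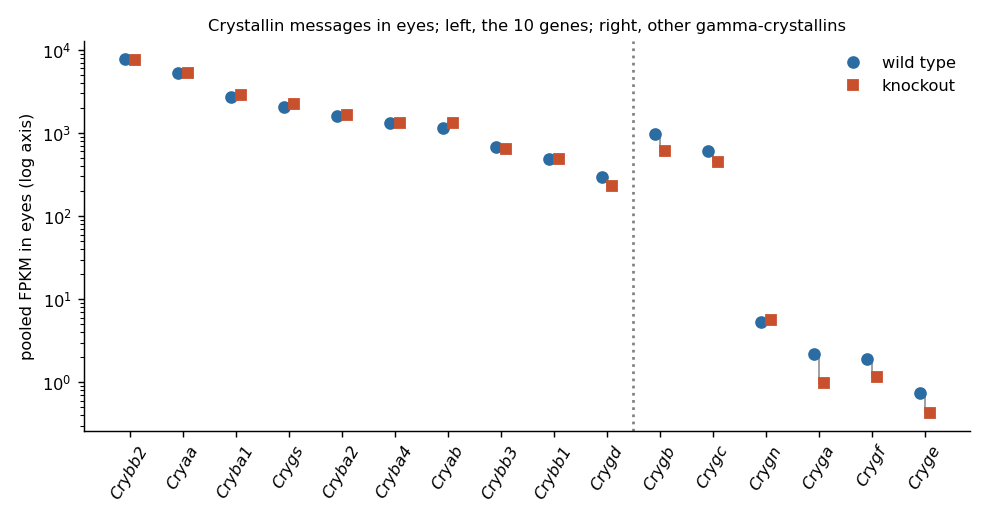
Pooled FPKM of 16 crystallin genes in eyes on a log axis, with circles for wild type and squares for knockout, each symbol being the authors' single value for that genotype with no error bar. To the left of the dotted line the 10 genes run from Crybb2 at 7757 FPKM to Crygd at 294 FPKM in wild type. Their 2 symbols lie close together, least so for Crygd, whose square is at 230 FPKM. To the right the squares of Crygb, Crygc, Cryga, Crygf and Cryge sit below the circles while the symbols of Crygn nearly coincide.

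Crygd is 1 of 6 closely related gamma-crystallins on chromosome 1, and all 6 were lower in knockout eyes, under each scaling tried. Crygb was at 976 FPKM in wild type and 602 FPKM in knockout (log2 change -0.70). Crygc was at 609 and 447 FPKM (log2 change -0.45). Cryga, Crygf and Cryge were near 1 FPKM, at 2.18 and 0.989, 1.91 and 1.16, and 0.744 and 0.429 FPKM. Summed, the 6 genes were at 1884 FPKM in wild type and 1281 FPKM in knockout, 32.0% lower. Crygb, Crygc and Crygd carried 99.7% of that sum in wild type.

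Among the 6 gamma-crystallins that are not part of the 10, 5 reached 1 FPKM in eyes. Of those 5, Cryga, Crygb and Crygf were past 1.5-fold lower, beside 0.948% of all genes in that direction and 2.79% in the other. Crygn, the gammaN gene on chromosome 5, which is also expressed in the retina, was at 5.29 and 5.63 FPKM. The coding sequences of Cryge and Crygf are 98.1% identical, and those of Crygd and Cryge 91.6%, so reads among these copies may have been divided uncertainly. Crygb and Crygc are 83.8% identical, and Crygs shares 62.2% with Crygd. With all 16 crystallin genes, the share of the eye total was 6.61% in wild type and 6.37% in knockout.

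Most other genes of the lens fiber cell were also within the limit. Of 12 fiber cell genes, 1 was past the limit, Grifin, a lens galectin, which was at 106 FPKM in wild type and 162 FPKM in knockout (log2 change 0.62), and within the limit once both pools were rescaled to the same total. The median log2 change of the 12 was -0.02. Of the 10 lens transcription factors, 8 reached 1 FPKM and 0 of these were past the limit. Their median was -0.20, and 7 of the 8 lay below 0. The most abundant were Pax6, at 126 and 108 FPKM, and Mab21l1, at 54.7 and 49.9 FPKM. These fiber cell and transcription factor genes were present in both genotypes, and pooled eye values do not tell which cells of the eye made them.

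Genes named crystallin for other reasons were low in eyes. The enzymes Crym, a ketimine reductase that binds thyroid hormone, Cryz and Cryzl1, quinone oxidoreductase relatives, and Cryl1, a gulonate dehydrogenase, gave 0 of 4 past the limit. Crym was at 13.9 and 12.9 FPKM, Cryz at 8.69 and 9.08 FPKM, Cryl1 at 4.002 and 4.212 FPKM, and Cryzl1 at 25.9 FPKM in both genotypes. Of the genes with a beta-gamma-crystallin domain outside the lens family, Aim1 was at 3.61 and 2.19 FPKM, past 1.5-fold lower, but not with a pseudocount of 1 or a minimum of 5 FPKM. Aim1l was at 4.31 and 3.48 FPKM, and Crybg3 at 5.66 and 5.17 FPKM.

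Markers of other cells of the eye are given next. Of 12 rod genes, 0 were past the limit and all 12 lay below a log2 change of 0 (median -0.10). Gnat1, the rod transducin subunit, was at 2552 and 2414 FPKM. Below 0 too were 7 of 9 cone genes, all 8 inner retina genes, 4 of 11 pigmented cell genes and 9 of 10 cornea genes. The median over all genes in eyes was -0.02. The cone list gave 0 of 9 (median -0.20), with Opn1sw at 110 and 79.0 FPKM and Arr3 at 83.6 and 72.5 FPKM. The inner retina list gave 0 of 8 (median -0.19), with Pcp2 at 103 and 94.5 FPKM and Trpm1 at 80.9 and 72.3 FPKM. The pigmented cell list gave 0 of 11 (median 0.02), with Ttr at 485 and 506 FPKM and Rgr at 292 and 310 FPKM. In the cornea list, 3 of 10 were past the limit, all lower in knockout (median -0.35): Aldh3a1, at 546 and 341 FPKM, and the keratins Krt12, at 317 and 203 FPKM, and Krt5, at 475 and 311 FPKM.

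Of the lists examined, those of skeletal muscle and red blood cells had the largest median differences between the eye pools. Of 12 fast skeletal muscle genes, 11 were past 1.5-fold higher in knockout, and the list summed to 3453 FPKM in wild type and 6215 FPKM in knockout (median log2 change 0.83). Among them were Acta1, skeletal actin, at 276 and 551 FPKM, and Ckm, muscle creatine kinase, at 248 and 455 FPKM. Tnnt3 was at 556 and 1002 FPKM and Tnnc2 at 437 and 784 FPKM. All 5 red blood cell genes found in the table were past 1.5-fold higher (median 1.56), with Hbb-bs at 107 and 329 FPKM, Hbb-bt at 25.8 and 88.8 FPKM, Hba-a1 at 20.4 and 60.4 FPKM and Alas2 at 4.81 and 13.8 FPKM.

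Cryab is also a muscle gene. The median log2 change of the Z-disc and desmin network list in eyes was above that of Cryab, at 0.18. Of 8 Z-disc and desmin network genes, 6 were past 1.5-fold higher (median 0.76), with Actn2 at 19.9 and 37.1 FPKM, Myot at 23.1 and 42.2 FPKM, Ldb3 at 21.2 and 38.2 FPKM and Flnc at 3.28 and 5.62 FPKM. Of the 7 other small heat shock protein genes with at least 1 FPKM, 3 were past 1.5-fold higher (median 0.56), and 1 was after rescaling: Hspb7 at 5.74 and 10.5 FPKM, Hspb3 at 2.89 and 4.44 FPKM, and Hspb8 at 19.7 and 29.9 FPKM. Hspb2, the muscle small heat shock gene beside Cryab, was at 7.81 and 11.4 FPKM (log2 change 0.54). Hspb2 and Cryab overlap by 1030 bases on opposite strands in GENCODE vM21, but their loci as deposited lie 403 bases apart. The libraries do not mark strand, and whether Hspb2 holds reads of the far more abundant Cryab was not tested. The part of muscle RNA in the 13.2% difference of Cryab in eyes was not tested. The heat-induced chaperones gave 0 of 6 (median 0.15), with Hsp90aa1 at 304 and 334 FPKM and Hspa8 at 220 and 259 FPKM.

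**Figure D2:**
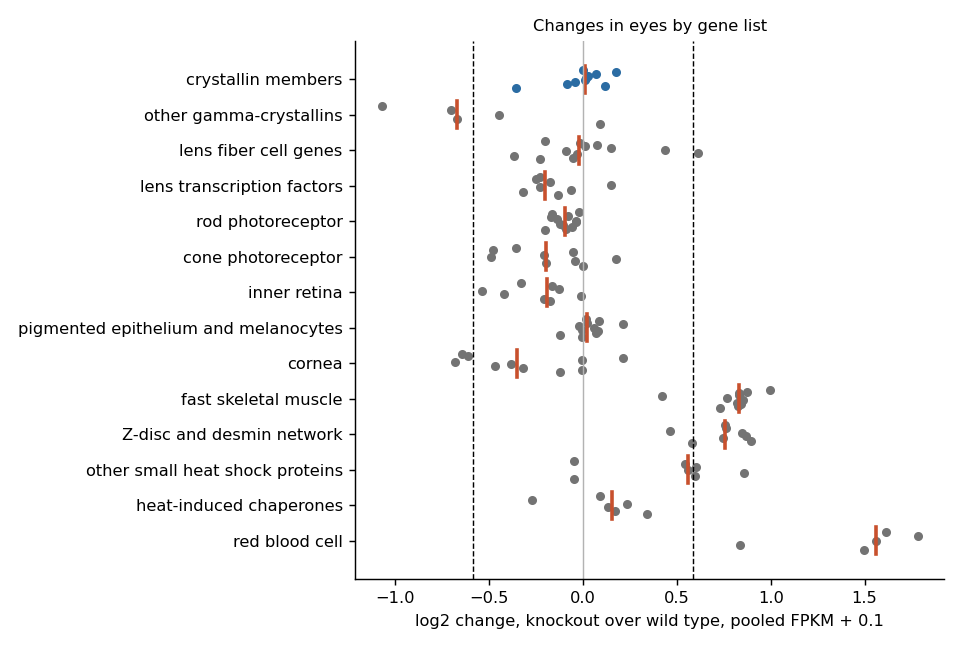
Log2 change of knockout over wild type in eyes (pooled FPKM with 0.1 added) for each gene with at least 1 FPKM, by gene list; each point is a gene, red bars are list medians, and dashed lines mark 1.5-fold. The 10 crystallin genes lie between -0.35 and 0.18 with their median at 0.01, whereas most fast skeletal muscle, Z-disc and red blood cell genes lie to the right of the upper dashed line and 3 cornea genes to the left of the lower one.

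Outside the eye, Cryab was the only 1 of the 10 that reached 1 FPKM in all 6 other tissues. Heart had the next highest level, at 1074 FPKM in wild type and 1270 FPKM in knockout. MEFs followed at 72.8 and 58.2 FPKM, and prostate at 10.3 and 11.8 FPKM. Spleen was at 4.46 and 4.21 FPKM, liver at 3.42 and 4.11 FPKM, and testes at 1.53 and 1.62 FPKM. Rescaled so that the genes of each pool sum to 1000000 (parts per 1000000, ppm), wild type Cryab was at 3079 ppm in eyes and 1763 ppm in heart, a ratio of 1.75. The order of the 7 tissues was the same in both genotypes, and whether neighbours in it differ beyond the spread between animals cannot be told.

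Cryab was within 1.5-fold between genotypes in every tissue. The log2 change was 0.24 in heart, -0.32 in MEFs, 0.19 in prostate, -0.08 in spleen, 0.26 in liver and 0.08 in testes. With the eye, 5 of 7 tissues had the higher value in knockout. As deposited, MEFs, at 20.0% lower, had the largest difference in absolute log2 size. With both pools of each tissue rescaled to the same total, liver had the largest, at 0.41, and MEFs were at -0.26. For all genes with at least 1 FPKM, the share past the limit was 2.68% in heart, 3.65% in MEFs, 3.55% in prostate, 6.43% in spleen, 5.26% in liver and 2.32% in testes.

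In heart, where Cryab was among the 67 most abundant genes, the Z-disc and desmin network genes gave 0 of 8 past the limit, with a median of 0.20, or 0.13 after rescaling to the same total. The other small heat shock protein genes gave 0 of 7 (median 0.04, or -0.04 after rescaling), and Hspb2 was at 81.2 and 85.2 FPKM. Most fast skeletal muscle genes went the other way than in eyes. Of 12, 10 were past 1.5-fold lower in knockout heart (median -3.92), for example Tnnc2 at 25.2 and 0.214 FPKM and Tnnt3 at 30.3 and 0.786 FPKM. The sum of the list hardly differed, at 1411 FPKM in wild type and 1408 FPKM in knockout heart, and 1 of the 12 was above a log2 change of 0. The part of skeletal muscle RNA in the Cryab values of heart was not tested. In MEFs, Des, the intermediate filament protein that Cryab binds, was past 1.5-fold lower, at 30.7 and 19.2 FPKM, and the other 3 Z-disc genes with at least 1 FPKM were not. In the remaining tissues this list gave 0 of 3 past the limit in prostate and 0 of 2 in spleen. It gave 1 of 2 in liver, Bag3, a co-chaperone, higher at 16.2 and 24.5 FPKM, and 1 of 6 in testes, Myoz2, higher at 0.942 and 2.34 FPKM.

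The heat-induced chaperones, which like Cryab are targets of heat shock factor, differed more than Cryab in several tissues. They gave 3 of 6 past 1.5-fold higher in knockout heart, 4 of 6 in prostate, 5 of 6 in spleen and 4 of 5 in liver, and 0 in MEFs and testes. With both pools rescaled to the same total, the counts were 3, 5, 3 and 5 in heart, prostate, spleen and liver, and the medians of heart and spleen went from 0.59 and 0.62 to 0.52 and 0.59. Hsph1, a large chaperone of the Hsp110 family, was at 13.9 and 28.8 FPKM in heart, 15.3 and 31.9 in prostate, 19.1 and 55.4 in spleen, and 17.0 and 39.98 in liver. In spleen, where Hsph1 had a log2 change of 1.53, that of Cryab was -0.08. The list of other small heat shock genes gave 1 gene past the limit in testes, Hspb8 at 0.493 and 1.63 FPKM, and 0 in heart, MEFs, prostate, spleen and liver. After rescaling it gave 2 in testes and 1 in liver.

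**Figure D3:**
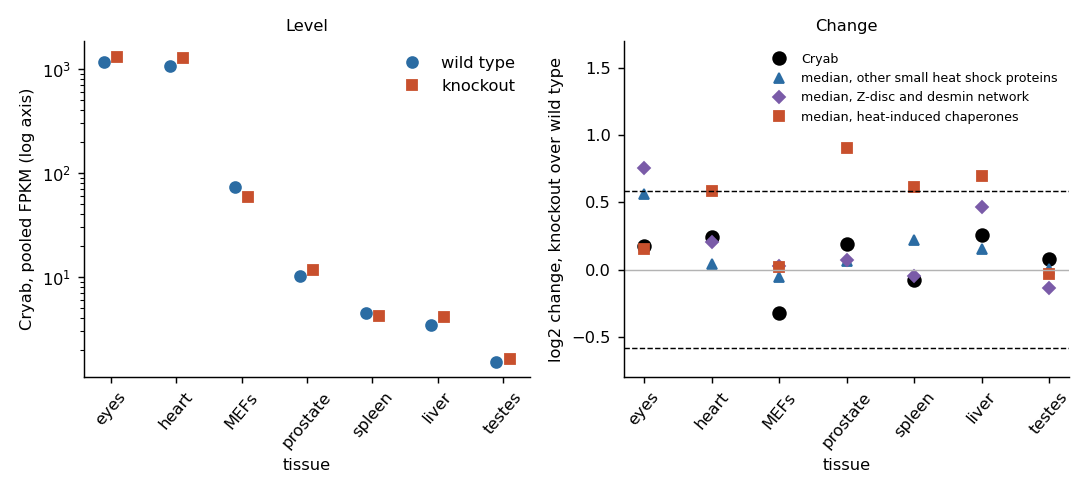
Left, pooled FPKM of Cryab in 7 tissues on a log axis, circles for wild type and squares for knockout; right, its log2 change beside the median changes of 3 gene lists, with dashed lines at 1.5-fold. Eyes and heart stand at 1074 FPKM or more and testes at 1.53 FPKM in wild type, and the Cryab points lie between the dashed lines in every tissue while the chaperone medians lie above the upper line in prostate and liver and close to it in heart, at 0.59, and spleen, at 0.62.

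The other 9 crystallin genes were near 0 outside the eye, with a few exceptions in heart and spleen. Cryba4 was at 8.86 FPKM in wild type and 9.73 FPKM in knockout heart (log2 change 0.13), 238 times less than in eyes in ppm in wild type. Its divergent neighbour Crybb1 was at 1.54 and 2.17 FPKM in heart (log2 change 0.47), and Crybb3 was at 1.09 and 0.750 FPKM (-0.48). In spleen, Cryba4 was at 1.06 and 1.54 FPKM (log2 change 0.49). None of these 4 differences was past the limit, and depth at such levels is unknown.

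In MEFs, prostate, liver and testes, the 9 other genes stayed under 1 FPKM in both genotypes. The highest were Crybb3 in liver, at 0.939 and 0.754 FPKM, and Cryba2 in testes, at 0.907 and 0.709 FPKM. Crygs was at 0.548 and 0.588 FPKM in testes. Crybb2, the most abundant in eyes, was listed at 0 in 5 of the 6 other tissues in wild type and at 0.137 FPKM in testes. Cryaa reached 0.400 FPKM in wild type testes and 0.125 FPKM in knockout. Of the other gamma-crystallins, Crygn alone reached 1 FPKM outside the eye, in liver, at 5.46 and 3.75 FPKM.

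**Figure D4:**
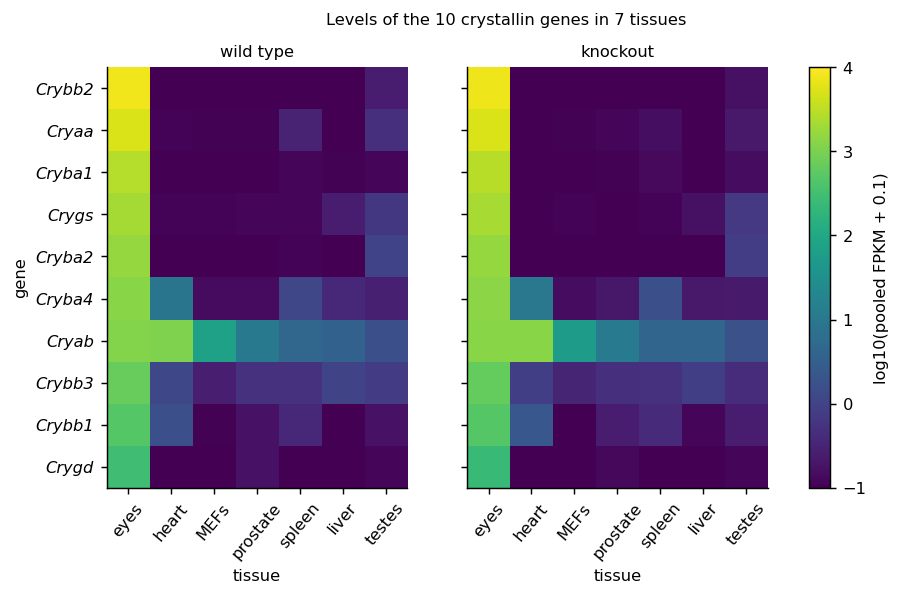
Heat map of log10(pooled FPKM + 0.1) for the 10 crystallin genes (rows, by wild type eye level) in 7 tissues (columns), with wild type on the left and knockout on the right. The eye column is bright for every gene in both panels, Cryab is the only row at 1 FPKM or more in every tissue, and Cryba4 stands out in heart at 8.86 FPKM in wild type.

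Over the 14 pooled values (7 tissues in 2 genotypes), the genes whose log2 level was most like that of Cryab were Adamtsl4 (Pearson r 0.99), Ttc7b (0.99), Vldlr (0.98), Nol3 (0.97) and Ccdc85a (0.97), among 16019 genes with at least 10 ppm in some pool. Those most like the sum of the 10 genes were Ppp1r1a (0.99), Lonrf2 (0.98), Rnf207 (0.98), Rgs7 (0.97) and Thra (0.97). That sum was nearly all Cryab in wild type heart, at 1074 of 1085 FPKM, and MEFs, at 72.8 of 73.0 FPKM. Likeness to the sum is therefore not likeness to the other crystallin genes alone. These values describe likeness across tissues, and the pools of 1 tissue are not independent of each other.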

How the data were processed

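Libraries had been made from polyA RNA with the TruSeq RNA Sample Preparation Kit v2, which does not mark strand. Per the labels, the submitters' processing notes name CASAVA 1.8.2, TopHat2, Cuffdiff and the build mm10; the study's methods describe another route for its own tests. The values used are FPKM that the authors deposited, 1 pooled value per genotype, tissue and gene, with no value per sample, so read depth and replicate error are unknown. The table's other columns hold the authors' own fold changes, test statistics, p and q values and were not used. Adult brain was not analysed here (2 genotype groups of 1 tissue).

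Changes were computed as log2((knockout + 0.1)/(wild type + 0.1)) with Python 3.11.15 and pandas 2.3.3, counted past 1.5-fold where at least 1 value reached 1 FPKM, and given with no test. The calculation was tested on simulated data. Coordinates came from GENCODE vM21 by gene ID, coding sequences were aligned globally with Biopython 1.88, and promoters came from RefSeq on GRCm38.p6. The crystallin genes and 15 lists of other genes were chosen with earlier results of these data known. Named were all 10 genes, the other gamma-crystallins, domain genes and enzymes, and from each other list up to 4 genes past the limit with the largest change, or else the 2 most abundant; 1 gene that this rule names is not reported here. Nufip2, Hspb2 and the genes named in tissues other than eyes were added for their position or list after their values were seen. Alternatives in pseudocount, minimum, fold limit, scaling, centring and status were tried.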

Additional observations from a re-analysis of the deposited data

How the results depend on the processing

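No paired analysis was possible because the table holds 1 pooled value per genotype and tissue, and for the same reason no replicate could be left out in turn. Of the 10 crystallin genes, 0 were past the limit in eyes under every alternative tried: a pseudocount of 1 or 0.01, a minimum of 5 FPKM or none, a fold limit of 2, rescaling to 1000000 or to the other genes, centring on the median change, and only genes with the table's status OK. Outside eyes the count was also 0, except with no minimum, where 5 pairs of gene and tissue passed, with levels under 1 FPKM. The Cryab change in liver was 0.41 after rescaling to 1000000 or to the other genes, against 0.26 as reported, since the liver pools differ in summed FPKM by 0.16 on the log2 scale. A fold limit of 2 left 5 of the 33 genes of other lists past it in eyes, and 9 of the 20 in the small heat shock, Z-disc and chaperone lists in the other tissues; the alternatives for the latter were chosen after seeing the data. Grifin was no longer past 1.5-fold in eyes after rescaling, and a minimum of 5 FPKM left 1 of the 3 gamma-crystallins past it. Without replicate values, the differences given here for crystallin and list genes cannot be set against variation between animals.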
